A study of Mus musculus with 574 samples.

Results

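Lmx1a-positive single cells of the mouse ventral midbrain were compared between embryonic days E11.5 and E10.5. The cells were chosen by their measured Lmx1a level, of at least 10 RPKM (RPKM divides a gene's reads by its transcript length in kilobases and by the library's reads in M, the SI prefix mega). This held for 98 cells at E10.5, with 39 left out (71.5%, exact 95% interval 63.2 to 78.9%), and for 38 of 90 cells at E11.5 (42.2%, 31.9 to 53.1%), out of 550 single cells in the series. All cells were from the C57BL/6 strain heterozygous for Lmx1a-EGFP, a reporter allele of Lmx1a with enhanced green fluorescent protein (GFP), so that the cells of both stages carried the allele, and no treatment is named. The series asks how the lineages of midbrain dopamine neurons and subthalamic nucleus neurons relate. The labels name no embryo or litter, so each stage is 1 sample. Differences between stages therefore carry no p-value, and the exact 95% (Clopper-Pearson) intervals on shares of cells cover counting error only. Replicated libraries exist as pools of 100 cells, of which the 6 labelled GFP positive at E10.5 and the 6 at E13.5 were used.

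Lmx1a encodes a LIM homeodomain transcription factor of the floor plate, the strip of cells along the ventral midline. In the midbrain, floor plate cells are themselves neurogenic: they secrete Sonic hedgehog (Shh), divide as radial progenitors, and give rise to dopamine neurons, while Lmx1a-expressing cells further rostrally produce glutamatergic neurons of the subthalamic nucleus. Progenitors stay in cycle under Notch signalling, and cells that leave it switch on proneural factors and then the cytoskeletal and synaptic genes of neurons.

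The values that chose the cells are given as a description. Lmx1a ranged from 10.7 to 372.5 RPKM with a median of 75.8 at E10.5, and from 11.9 to 878 with a median of 132.7 at E11.5. The highest cell left out was at 7.52 RPKM at E10.5 and 9.27 at E11.5, and Lmx1a was listed at 0 in 24 and 38 of the cells left out. The floor plate markers set beside Lmx1a followed the label at E10.5 and less so at E11.5. Shh reached 10 RPKM in 90 of 98 cells at E10.5 (91.8%, 84.6 to 96.4%) and in 12 of 38 at E11.5 (31.6%, 17.5 to 48.7%). Otx2, a homeobox gene of the forebrain and midbrain, reached it in 86 of 98 (87.8%, 79.6 to 93.5%) and 16 of 38 (42.1%, 26.3 to 59.2%). Each marker was thus below this level in most E11.5 cells, against the floor plate label, and Stmn2, a marker of neurons, was above it in 24 of the 38. The reporter transcript was at 10 RPKM or more in 92 of 98 cells at E10.5 and in 22 of 38 at E11.5.

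The libraries of the stages differed, and stage cannot be told apart from library set, since all E10.5 cells have sample titles starting with E and all E11.5 cells titles starting with J. The depth implied by the values had a median of 1.20 M reads per cell at E10.5 (0.362 to 5.82) and 0.641 M at E11.5 (0.376 to 1.28). The median number of genes at 1 RPKM or more was 5852 and 4327, and genes with a single annotated transcript numbered 1016 and 680.5 after thinning each cell to 0.4 M reads. Over the 9191 genes measured, the median difference between stages of the mean log2(RPKM + 1) was -0.71. It ran from -1.28 in the shortest of 4 transcript length classes to -0.18 in the longest. The part of depth, transcript length and library set in the results below was not tested.

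A gene was counted as higher or lower when its mean log2(RPKM + 1) over cells differed by at least 1 between the stages, which on this scale understates the change of genes near 0. Among Lmx1a-positive cells, 767 of 9191 genes were higher at E11.5 (8.35%) and 3667 were lower (39.9%). Counts of higher and lower genes in the lists below stand against these 2 shares of measured genes. Measured genes were at 10 RPKM or more in at least 10% of cells, averaged over the stages. A gene nearly absent at 1 stage can pass this filter through the other alone, and its direction then largely follows from passing. The all-gene median of -0.71 is also over measured genes. List medians are over all members found, also those that did not pass the filter on low values. They are therefore not on like terms with the -0.71. With no such filter the median difference was -0.11 over 19765 genes. The 12 genes with the largest differences upwards, among those whose share of cells at 10 RPKM or more moved by at least 25 points, included the genes of neurons Ncan, Nsg2, Tubb3, Stmn2, Gng3, Apc2 and Crmp1. The dopamine lineage factor Nr4a2, the locus Mir3078 and the gene models Gm10801 and Gm10800 were also among them. The 12 downwards were Ldha, Zfp36l1, Rrm2, Mdk, Id3, Vtn, Tppp3, Cks1b, Crb2, Igfbp5, Shh and the mitochondrial mt-Nd3. They include genes of proliferation (Rrm2 makes deoxynucleotides and Cks1b binds cyclin-dependent kinases), secreted proteins (Shh, Mdk, Vtn, Igfbp5) and the apical polarity gene Crb2.

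**Figure D1:**
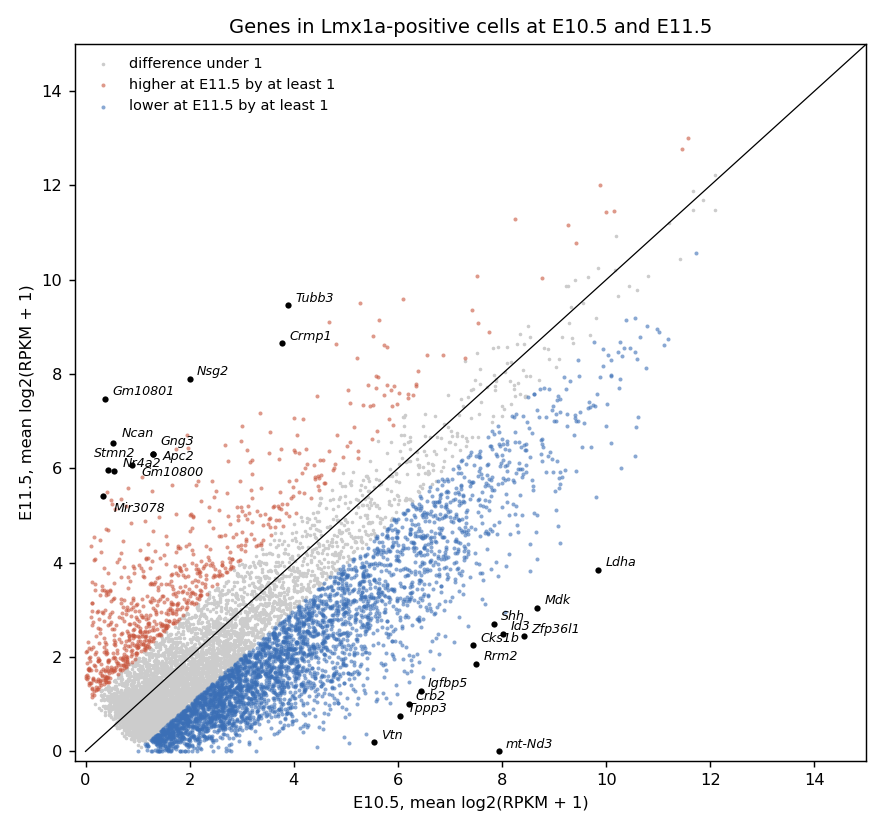
Mean log2(RPKM + 1) of each of the 9191 measured genes over 98 Lmx1a-positive cells at E10.5 (horizontal axis) and 38 at E11.5 (vertical axis), with the line of equal levels. Points in red (767) and blue (3667) differ by at least 1, black points with names are genes from the 12 with the largest differences in each direction, and most of the cloud lies below the line (median difference -0.71).

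Neuronal genes were the most uniform group on the higher side. Stmn2, which encodes a microtubule regulator of young neurons, was at 0 RPKM in the median E10.5 cell (0 to 2190) and at 396 in the median E11.5 cell (0 to 1081). It reached 10 RPKM in 4 of 98 cells (4.08%, 1.12 to 10.1%) and in 24 of 38 (63.2%, 45.99 to 78.2%), a difference of 5.54 in mean log2(RPKM + 1). The ranges of the stages overlapped through the few positive E10.5 cells, but within E11.5 the cells fell into 2 separate ranges, with the highest Stmn2-low cell at 2.76 RPKM and the lowest Stmn2-high cell at 124.7. Tubb3, the neuronal beta tubulin, was already present at 10 RPKM in 48 of 98 E10.5 cells (median 6.46 RPKM, 0 to 4271) and in 35 of 38 at E11.5 (median 1451, 2.53 to 5868). Of the 17 pan-neuronal genes found, 14 passed the filter on low values and all of these 14 were higher. Members sparse at E10.5, such as Stmn2, passed through their E11.5 cells, so their being higher largely followed from passing. The median difference over all 17, passed or not, was 3.04. For all genes the median was -0.71 with the filter and -0.11 without it. Nsg2, a neuronal vesicle protein, had medians of 0 (0 to 888) and 725 RPKM (0 to 3457). Map2, a dendritic microtubule protein, went from 62 of 98 to 33 of 38 cells at 10 RPKM, and Rtn1, of the endoplasmic reticulum of neurons, from 15 of 98 to 26 of 38. The axonal growth gene Gap43 was at 10 RPKM in 6 of 98 and 21 of 38 cells, and the microtubule protein Mapt in 3 of 98 and 16 of 38. Ncan, which encodes the brain proteoglycan neurocan, had a difference of 6.02, from a median of 0 (0 to 252) to 194.9 RPKM (0.216 to 793).

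Proneural factors and Notch pathway genes of differentiating cells were also higher. Of 18 such genes found, 15 passed the filter, 12 were higher (8.35% of all measured genes were) and 1 was lower, with a median difference of 1.42. Nhlh2, a basic helix-loop-helix factor of newborn neurons, had a median of 0 RPKM at E10.5 (0 to 224) and 71.4 at E11.5 (0 to 662), with 6 of 98 and 25 of 38 cells at 10 RPKM. Dll3, a Notch ligand family member of cells that commit to neuronal fate, had medians of 0 (0 to 2370) and 4.41 RPKM (0 to 1359), with 12 of 98 (12.2%) and 17 of 38 cells (44.7%). For Dll3 the highest cells of the stages reached similar levels, and the stages differed in how many cells had it. Srrm4, a splicing regulator of neuronal exons, reached 10 RPKM in 14 of 98 and 22 of 38 cells. Neurog1, a proneural factor of dividing precursors, reached it in 3 of 98 cells at E10.5 and in 8 of 38 at E11.5. Btg2, an antiproliferative gene, was the lower member, with a difference of -1.19.

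**Figure D2:**
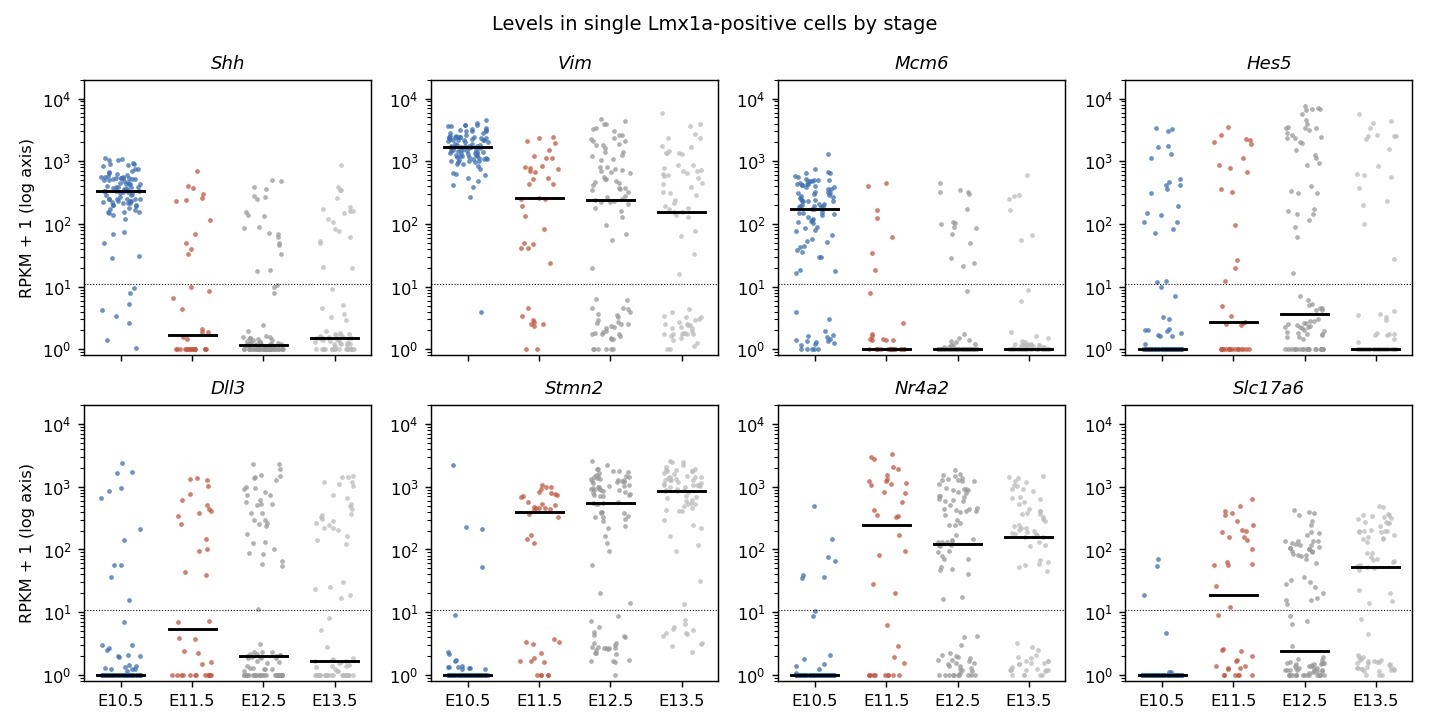
Level of 8 genes in each Lmx1a-positive cell (1 point per cell, 98, 38, 90 and 73 cells from E10.5 to E13.5) as RPKM + 1 on a log axis, with black bars for medians and a dotted line at 10 RPKM. Shh, Vim and Mcm6 are high in most E10.5 cells and split or near 0 from E11.5 on, while Stmn2, Nr4a2 and Slc17a6 are near 0 in most E10.5 cells and high in many cells from E11.5 on.

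Of 14 dopamine neuron genes found, 6 passed the filter, 3 were higher and 0 were lower. The median difference over the 14 was 0.31, and that of all genes was -0.71 with the filter and -0.11 without it. Nr4a2 (Nurr1), a nuclear receptor required for dopamine neurons, had a median of 0 RPKM at E10.5 (0 to 486) and 247 at E11.5 (0 to 3308). It was at 10 RPKM in 7 of 98 cells (7.14%, 2.92 to 14.2%) and 24 of 38 (63.2%, 45.99 to 78.2%), and the highest E10.5 cells overlapped the lower E11.5 cells. Dlk1, a membrane-bound Notch family protein, was also among the higher members (2.23). Genes of mature dopamine neurons were sparse at both stages. Th, tyrosine hydroxylase, which starts dopamine synthesis, was at 10 RPKM in 15 of 98 cells (15.3%, 8.83 to 23.99%) and 8 of 38 (21.1%, 9.55 to 37.3%), with medians of 0. These intervals overlap widely, and 13 of the 15 E10.5 cells with Th had no Nr4a2, against 1 of the 8 at E11.5. Pitx3, a homeobox factor of dopamine neurons, was at 10 RPKM in 0 of 98 cells (up to 3.69%) and 2 of 38 (5.26%, 0.644 to 17.8%). Ret, the receptor subunit for the growth factor GDNF, reached it in 1 of 98 and 0 of 38 cells.

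All 8 genes of the subthalamic lineage passed the filter, with 4 higher, 1 lower and a median difference of 0.76 beside the all-gene -0.71. Slc17a6, the vesicular glutamate transporter of this and other glutamatergic neurons, had medians of 0 (0 to 69.7) and 17.95 RPKM (0 to 645). It was the sparsest member at E10.5, in 3 of 98 cells against 20 of 38 at E11.5. Barhl1, a homeobox factor of the lineage, reached 10 RPKM in 33 of 98 cells (33.7%, 24.4 to 43.9%) and 17 of 38 (44.7%, 28.6 to 61.7%), so that its share differed by less than the counting intervals although its mean log2 level differed by 1.90. That difference was 0.14 in cells with Mki67 at 10 RPKM or more and 0.69 in cells with EGFP at 10 RPKM or more, both short of the fold, as was the 0.33 with E11.5 cells limited to those with Gm10801 under 100 RPKM. Foxp2, a forkhead factor, was present in most cells of both stages (70 of 98 and 31 of 38). Its mean log2 difference of 1.40 was -0.06 when the E11.5 cells were limited to the 13 with Gm10801 under 100 RPKM, the setting also used for Barhl1 and chosen after the data were seen. Wnt8b, a secreted Wnt, was the lower member, in 39 of 98 and 4 of 38 cells. Barhl2 and Foxp1 differed by 0.13 and -0.26.

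Markers of the dopamine and subthalamic lineages met in the same cells. Among the 24 E11.5 cells with Stmn2 at 10 RPKM or more, 20 had Nr4a2, and of all 24, 8 had Nr4a2 with Barhl1 (33.3%, 15.6 to 55.3%), 12 Nr4a2 alone, 2 Barhl1 alone and 2 neither. Slc17a6 was present in 19 of these 24. Among cells with Stmn2, the share with both Nr4a2 and Barhl1 was 17 of 64 at E12.5 and 18 of 60 at E13.5, and all intervals overlap. Libraries that held more than 1 cell were not looked for, so their part in these joint counts was not tested.

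Floor plate genes lay on the lower side at E11.5. Of 19 found, 15 passed the filter, 0 were higher and 9 were lower, with a median over the 19 of -0.72. For all genes the median was -0.71 with the filter and -0.11 without it. Shh, the ventral signal of the floor plate, ran from 0.0563 to 1122 RPKM with a median of 339 at E10.5, and from 0 to 707 with a median of 0.713 at E11.5. The E10.5 cells were mostly high and the E11.5 cells mostly near 0, and the E11.5 cells with Shh lay within the E10.5 range. Ntn1 and Slit2, secreted guidance proteins of the midline, were in 86 and 93 of 98 cells at E10.5 and 12 and 25 of 38 at E11.5. Bmp7, a bone morphogenetic protein, was in 61 of 98 and 5 of 38 cells, and Corin, a membrane protease that marks the midbrain floor plate, in 33 of 98 and 2 of 38. Foxa2, a forkhead factor of floor plate and dopamine neurons, was in 71 of 98 (72.4%, 62.5 to 80.99%) and 15 of 38 (39.5%, 24.04 to 56.61%). The partner gene of Lmx1a, Lmx1b, was in 58 of 98 and 25 of 38 cells, a difference of 0.98 in mean log2 that passed 1 under 8 of the 17 other settings and was -0.03 in cells with little Stmn2. Foxa1 differed by 0.08.

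In the 5 signalling pathways listed no gene that passed the filter was higher. Their list medians include members that did not pass, so they are not on like terms with the -0.71 of measured genes. For Wnt signalling, 33 genes were found, 20 passed, 0 were higher and 13 were lower (median -0.70), where 39.9% of all measured genes were lower. Dkk2, a secreted Wnt modulator, is given in full. At E10.5 it ran from 0 to 1135 RPKM with a median of 68.1 and was at 10 RPKM in 60 of 98 cells (61.2%, 50.9 to 70.9%). At E11.5 no cell reached 10 RPKM (0 of 38, up to 9.25%), and the highest cell was at 8.99. Tcf7l1, a repressor at Wnt target genes, likewise reached 10 RPKM in 40 of 98 and 0 of 38 cells, and the target Axin2 in 47 of 98 and 8 of 38. The ligands Wnt5a and Wnt5b were in 73 and 40 of 98 cells and in 20 and 5 of 38. For FGF signalling (median -0.58), 5 of 16 genes found passed and all 5 were lower, namely the receptors Fgfr1, Fgfr2 and Fgfr3, the feedback phosphatase Dusp6 and the target Etv1 (0 of 38 cells at E11.5). Etv1, like Dkk2 and Tcf7l1, passed the filter only through its E10.5 cells, so its being lower largely followed from passing. For 11 of the 16 genes found, no E11.5 cell reached 10 RPKM. For BMP and TGF-beta signalling (median -0.19) 7 of 19 passed and 4 were lower, led by the BMP target Id3 (medians 600 and 0 RPKM, with ranges of 0 to 2724 and 0 to 1014). For the hedgehog pathway (median 0.03) 7 of 13 passed, and 2 of these, Shh and its signal transducer Smo, were lower. In the retinoid pathway (median -0.52) 3 of 14 passed, and 2 were lower, among them the binding protein Crabp2 (-3.16).

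Of 27 matrix and adhesion genes found, 19 passed, 2 were higher and 13 were lower, with a median over the 27 of -0.87. The median of all genes was -0.71 with the filter and -0.11 without it. Col18a1 and Col4a2, basement membrane collagens, were in 77 and 64 of 98 cells at E10.5 and 5 and 3 of 38 at E11.5. Sulf1, a sulfatase that trims heparan sulfate, had medians of 383 (0 to 1784) and 1.44 RPKM (0 to 1296). Among 27 guidance and surface genes found, 17 passed and 5 were higher against 5 lower (median -0.20). The higher members were the receptors Dcc, Robo1, Robo2 and Epha3 and the semaphorin Sema6a, and the lower members were the ligands Slit1, Slit2, Slit3 and Ntn1 and the ephrin receptor Epha7. Dcc, a netrin receptor, had medians of 0.202 (0 to 298) and 212 RPKM (0.208 to 1112) and was in 23 of 98 and 29 of 38 cells. The Slit receptors Robo1 and Robo2 were in 5 and 2 of 98 cells and 20 and 9 of 38. Slit1 differed by -1.10, Slit3 by -1.44 and Epha7 by -2.08, whereas the receptors Ephb2 (-0.58), Nrp1 (-0.20) and Unc5c (-0.07) were short of the fold.

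Genes of cell division were lower as whole lists. Of 14 DNA replication genes all 14 passed the filter and all 14 were lower, with a median of -3.86, and of 16 mitosis genes all passed and 15 were lower, with a median of -3.14. Mcm6, a subunit of the replicative helicase, ran from 0 to 1298 RPKM with a median of 171.1 at E10.5 and from 0 to 452 with a median of 0 at E11.5. It was at 10 RPKM in 79 of 98 cells (80.6%, 71.4 to 87.9%) and 7 of 38 (18.4%, 7.74 to 34.3%). It was listed at 0 in 22 E11.5 cells and 5 E10.5 cells, and the few high E11.5 cells lay within the E10.5 range. Rrm2, a subunit of ribonucleotide reductase, was in 84 of 98 and 9 of 38 cells. Top2a, a topoisomerase of dividing cells, was in 65 of 98 (66.3%, 56.1 to 75.6%) and 4 of 38 (10.53%, 2.94 to 24.8%), and Mki67, a proliferation marker, in 49 of 98 (50%, 39.7 to 60.3%) and 6 of 38 (15.8%, 6.02 to 31.2%). None of the 24 E11.5 cells with Stmn2 had Mki67 (up to 14.2%), whereas 6 of the 14 without Stmn2 did. The mitosis member short of the threshold was Cenpe, a kinetochore motor.

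Replication genes are known targets of E2F factors, which bind short GC-rich motifs near the start site. The promoters shown are those of the DNA replication list in which the words TTTCCCGC or TTTGGCGC occurred on either strand within 250 bases before the start site, in 4 of 11 genes matched (36.4%) beside 407 of the 27025 genes of the table (1.51%), a gene with several promoters counted once, and 0 of 13 mitosis genes. A match describes letters and not a bound site. The stretches, from RefSeq on GRCm38.p6, are printed 5′ to 3′ on the gene's strand with 30 bases on either side, and capitals mark the motif. Those of Mcm5 and Mcm6 belong to helicase subunits with differences of -4.26 and -4.74, that of Mcm7 to another subunit (-3.28) and that of Cdc6 to a helicase loader (-1.87). They lie at chr8:75109330-75109397 (plus strand), chr1:128359715-128359845 (minus), chr5:138172011-138172078 (minus) and chr11:98907983-98908050 (plus).
Mcm5: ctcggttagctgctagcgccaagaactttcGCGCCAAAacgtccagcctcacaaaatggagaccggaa
Mcm6: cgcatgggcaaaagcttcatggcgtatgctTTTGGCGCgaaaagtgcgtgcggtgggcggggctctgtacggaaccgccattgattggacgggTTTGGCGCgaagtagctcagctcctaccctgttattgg
Mcm7: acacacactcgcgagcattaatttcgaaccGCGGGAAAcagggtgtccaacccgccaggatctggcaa
Cdc6: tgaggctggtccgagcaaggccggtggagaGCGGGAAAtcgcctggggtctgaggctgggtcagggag

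Progenitor genes lay mostly on the lower side. Of 13 found, 10 passed, 1 was higher and 7 were lower, with a median over the 13 of -1.37. The all-gene median was -0.71 with the filter and -0.11 without it. Vim, the intermediate filament of progenitors, ran from 2.90 to 4618 RPKM with a median of 1663 at E10.5 and from 0 to 2466 with a median of 255 at E11.5. Hes1, a Notch target that represses proneural genes, was in 79 of 98 cells (medians 131.8 and 0 RPKM) and 11 of 38. Prom1, a membrane protein of apical protrusions, was in 89 of 98 and 13 of 38, and the stem cell factor Sox2 in 45 of 98 and 4 of 38. The higher member was Hes5, another Notch target, with medians of 0 (0 to 3455) and 1.69 RPKM (0 to 3461) and 22 of 98 (22.4%, 14.6 to 31.99%) and 16 of 38 cells (42.1%, 26.3 to 59.2%). Early neuroepithelial genes, which mark embryonic progenitors before neurogenesis, had 15 found, 10 passed, 0 higher and 8 lower (median -1.10, where 39.9% of all measured genes were lower). Sall4, a zinc finger factor of pluripotent and early embryonic cells, was in 68 of 98 cells (69.4%, 59.3 to 78.3%) and 6 of 38 (15.8%, 6.02 to 31.2%), with medians of 90.7 (0 to 845) and 0 RPKM (0 to 1015). Igf2bp1 and Igf2bp3, RNA-binding proteins that are targets of let-7, were in 78 and 77 of 98 cells and in 15 and 17 of 38.

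**Figure D3:**
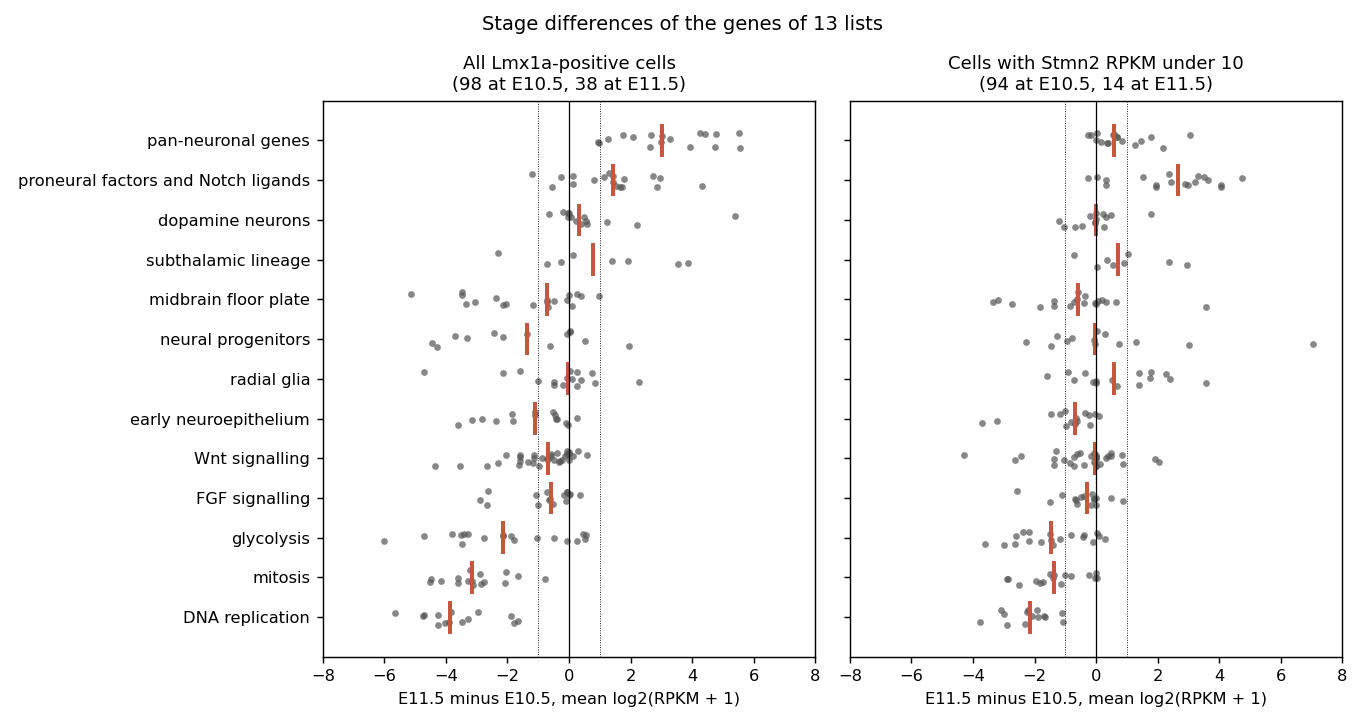
Stage difference of each gene (points) of 13 lists, as E11.5 minus E10.5 of mean log2(RPKM + 1), with the list median as a red bar and dotted lines at -1 and 1, in all Lmx1a-positive cells (left) and in those with Stmn2 under 10 RPKM (right). Pan-neuronal genes have a median of 3.04 on the left and 0.60 on the right, proneural and Notch ligand genes 1.42 and 2.66, and DNA replication genes -3.86 and -2.15.

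Glycolytic genes lay mostly on the lower side. Of 19 found, 15 passed, 0 were higher and 12 were lower, with a median over the 19 of -2.13. The all-gene median was -0.71 with the filter and -0.11 without it. Ldha, lactate dehydrogenase A, ran from 10.6 to 4412 RPKM with a median of 1143 at E10.5 and from 0 to 1482 with a median of 1.95 at E11.5. It was at 10 RPKM in all 98 cells at E10.5 and in 16 of 38 at E11.5 (42.1%, 26.3 to 59.2%). Tpi1 and Aldoa, further enzymes of the pathway, had medians of 684 and 685 RPKM at E10.5 and 41.1 and 155.8 at E11.5, and the glucose transporter Slc2a1 was in 64 of 98 and 5 of 38 cells. Pdk1, a kinase that inhibits pyruvate dehydrogenase, was in 30 of 98 and 0 of 38. Pkm was at 10 RPKM in all 98 cells and in 37 of 38, with medians of 1182 (410 to 2249) and 367 (0 to 1034).

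Chromatin and splicing subunits that neurons exchange for those of progenitors moved in both directions, with 23 found, 22 passed, 9 higher and 6 lower (median 0.63). Actl6a, the progenitor subunit of the BAF remodelling complex, was in 83 of 98 and 20 of 38 cells, and its neuronal counterpart Actl6b in 2 of 98 (2.04%, 0.248 to 7.18%) and 14 of 38 (36.8%, 21.8 to 54.01%). Ptbp1, a splicing repressor of non-neuronal cells, was in 91 of 98 and 23 of 38 cells (difference -2.71). The neuronal splicing factors Nova2 and Rbfox2 were in 18 and 26 of 98 cells and 23 and 22 of 38. Mir3078 at chr14:64591185-64591271 and Mir124a-1 at chr14:64590657-64590741 (mm10, plus strand) lie within Mir124a-1hg, the host transcript of the neuronal miR-124. Mir3078 reached 10 RPKM in 5 of 98 and 25 of 38 cells, and Mir124a-1, named here after its values were seen, in 3 of 98 and 26 of 38. These are reads over the gene models and not levels of mature microRNA.

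The named genes Gm10801, Gm10800 and mt-Nd3 differed between E10.5 and E11.5 in Lmx1a-negative cells as well. Gm10801 and Gm10800 (chr2:98662237-98664083 and chr2:98666547-98667301) had medians of 245 (0 to 4144) and 91.5 RPKM (0 to 3089) at E11.5, and were at 10 RPKM in 33 and 32 of 38 cells against 1 and 4 of 98 at E10.5. They were also at 10 RPKM in 30 and 39 of the 52 Lmx1a-negative E11.5 cells, and in 14 and 26 of 90 Lmx1a-positive cells at E12.5. The mitochondrial gene mt-Nd3 (mitochondrial positions 9459 to 9806) had a median of 363 RPKM at E10.5 (0 to 3614), and was listed at 0 in all E11.5 and all E12.5 cells and present in all 73 Lmx1a-positive cells at E13.5. Its neighbour mt-Tg was also listed at 0 in every E11.5 and E12.5 cell. Other mitochondrial genes such as mt-Co1 were present in every cell, with medians of 4455 and 2947 RPKM.

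**Figure D4:**
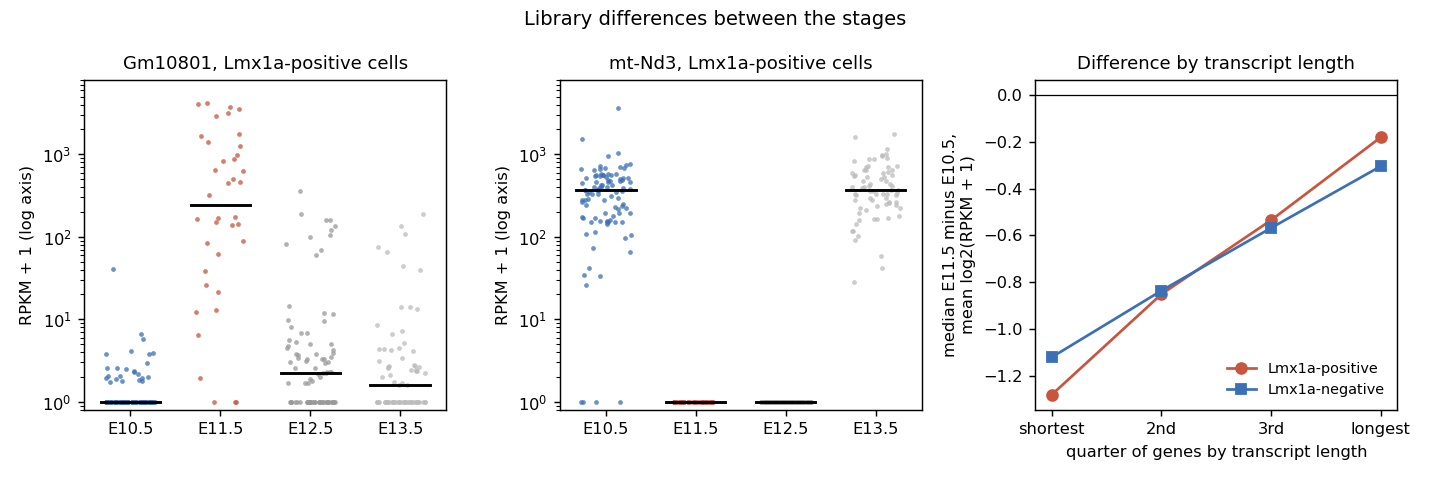
Left and middle, level of Gm10801 and mt-Nd3 in each Lmx1a-positive cell by stage (RPKM + 1, log axis, bars are medians): Gm10801 is high in 33 of 38 cells at E11.5, and mt-Nd3 is listed at 0 at E11.5 and E12.5. Right, median stage difference of mean log2(RPKM + 1) in 4 classes of genes by transcript length, from -1.28 to -0.18 in Lmx1a-positive cells and from -1.12 to -0.30 in Lmx1a-negative cells.

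Markers of GABAergic neurons and microglia were at or near 0, and those of other cell types were present in some cells. The 10 GABAergic genes summed to 0 to 0.770 RPKM per cell at E10.5 and 0 to 4.17 at E11.5, and the 9 microglia and macrophage genes to 0 to 0.904 and 0 to 0.568, with no cell at 10 RPKM for any member. At least 1 of 8 endothelial genes was at 10 RPKM in 12 of 98 cells (sums of 0 to 457) and 2 of 38 (0 to 70.4), and at least 1 of 10 mesenchymal genes in 20 of 98 (0 to 232) and 2 of 38 (0 to 36.1). None of these 4 lists had a member past the filter. Gata2 of GABAergic and serotonergic neurons reached 10 RPKM in 0 cells of either stage, and Nkx6-1 of the basal plate in 19 of 98 and 4 of 38. Nkx2-1, a homeobox gene of the hypothalamus and basal forebrain, reached it in 33 of 98 and 6 of 38 cells. It was the 1 lower gene of the 2 that passed among 12 genes of the diencephalon, hypothalamus and forebrain. Basal plate genes had 3 of 11 past the filter, motor and red nucleus genes 1 of 10, neural crest genes 1 of 6 and red blood cell genes 1 of 8, with 0 higher and 0 lower in each. Of 5 serotonergic and 10 hindbrain and isthmus genes 0 passed, though at least 1 hindbrain and isthmus gene was at 10 RPKM in 23 of 98 and 6 of 38 cells. The part of such cells in the stage differences was not tested. Roof plate and choroid plexus genes, a list that holds Lmx1a itself, had 2 of 9 past the filter, and Folr1 was lower (-3.39).

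To look beyond the larger number of neurons at E11.5, cells with Stmn2 under 10 RPKM were set side by side, 94 at E10.5 and 14 at E11.5. No E11.5 cell and 1 E10.5 cell had Stmn2 between 5 and 20 RPKM. Of 9137 genes measured in them, 861 were higher (9.42%) and 2731 were lower (29.9%), with a median difference of -0.45. Of the 767 genes higher in all cells, 370 were also higher here (48.2% of the first list and 42.97% of the second), and of the 3667 lower genes 2317 were (63.2% and 84.8%).

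The Stmn2-low cells of E11.5 carried several Notch pathway genes at high level, but not all. The Notch target Hes1 was lower, with a difference of -0.96 or below in each of 16 other settings, these cells included. Hes5 was at 10 RPKM in 20 of 94 cells at E10.5 (21.3%), with a median of 0 RPKM (0 to 3455), and in 14 of 14 at E11.5, with a median of 828 (11.3 to 3461). Every E11.5 cell was above the E10.5 median, and the ranges overlapped through the 20 positive E10.5 cells. The receptor Notch1 had medians of 83.1 (0 to 418) and 466 RPKM (132.7 to 1120), a difference of 3.02 against -1.37 in all cells. Of the 18 proneural and Notch ligand genes, 15 passed and 14 were higher (median 2.66). Mfng, which modifies Notch receptors with sugars, was in 38 of 94 and 13 of 14 cells, and Dll3 in 10 of 94 and 7 of 14. Tle3, a corepressor that works with Hes proteins, was in 60 of 94 and 13 of 14.

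Radial glial genes were on the higher side in these cells, with 16 found, 12 passed, 7 higher and 1 lower (median 0.59, against -0.02 in all cells). Fabp7, a fatty acid binding protein of radial glia, was at 10 RPKM in 30 of 94 cells (median 0 RPKM, 0 to 1199) and 10 of 14 (median 152.7, 0 to 2510). Sox9, a factor of neural stem cells and glia, was in 55 of 94 and 11 of 14 cells, with medians of 35.1 and 130.4 RPKM. Otx2 was in 83 of 94 and 13 of 14 cells, with medians of 318 and 427 RPKM, so that its difference of -3.47 in all cells was 0.66 among Stmn2-low cells. In the same 14 cells Otx2 was thus nearly always present, whereas 3 of the 24 Stmn2-high cells had it. The Gm10801 model was at 10 RPKM in 13 of the 14 cells.

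Other genes stayed lower in Stmn2-low cells. Shh was in 87 of 94 and 8 of 14 cells, with medians of 341 (0.432 to 1122) and 72.6 RPKM (0 to 707). Dkk2 was in 59 of 94 and 0 of 14 cells, Vtn, which encodes the adhesive matrix protein vitronectin, in 52 of 94 and 1 of 14, and Crb2 in 83 of 94 and 3 of 14. Foxa2 was in 68 of 94 and 4 of 14 cells, lower by more here (-3.33) than in all cells (-2.37). Sall4 was in 65 of 94 and 2 of 14. All 14 DNA replication genes were still lower (median -2.15), Mcm6 being in 76 of 94 and 6 of 14 cells, as were 11 of the 14 glycolytic genes that passed (median -1.46). Of 16 mitosis genes that passed, 0 were higher and 11 were lower (median -1.38), where 29.9% of all measured genes were lower. Mki67, a member of that list, was in 47 of 94 and 6 of 14 cells, a difference of -0.22. Pan-neuronal genes had 8 passed and 5 higher (median 0.60), in cells chosen for low Stmn2. Among cells with Mki67 at 10 RPKM or more, 49 at E10.5 and 6 at E11.5, 1505 of 9599 genes were higher (15.7%) and 2836 lower (29.5%). There DNA replication genes had a median of -1.34 and mitosis genes of 0.17, beside -0.25 for all genes. The mitosis list holds Mki67, by which these cells were chosen, so its median is given as a description.

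The Lmx1a-negative cells of the same stages, 39 at E10.5 and 52 at E11.5, are given side by side. Of 8518 genes measured in them, 338 were higher (3.97%) and 3415 were lower (40.1%), with a median of -0.76, against 8.35% and 39.9% in Lmx1a-positive cells. With Stmn2 under 10 RPKM (31 and 24 cells) 401 of 8400 were higher (4.77%) and 3011 lower (35.8%). Of the 767 genes higher in Lmx1a-positive cells 251 were also higher in Lmx1a-negative cells (32.7% of 767 and 74.3% of 338), and of the 3667 lower genes 2513 were (68.5% and 73.6%). Pan-neuronal genes had 16 passed and 11 higher (median 2.35), DNA replication genes 14 passed and 13 lower (median -2.99), and glycolytic genes 15 passed and 11 lower (median -1.53). For some genes the values of the classes lay apart. Nr4a2 differed by 1.84 in Lmx1a-negative cells and 5.40 in Lmx1a-positive cells, Igfbp5 by -0.72 and -5.15, Dkk2 by -0.80 and -4.35, and Bmp7 by -0.74 and -3.47. Nr4a2 and Igfbp5 were named for their large differences in Lmx1a-positive cells, so smaller values in the other class follow in part from that choice. A fall is also bounded by the E10.5 level, which is not given here for Lmx1a-negative cells. Proneural and Notch ligand genes had 3 of 12 higher (median 0.58). With 1 sample a stage, the difference between the classes has no test.

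Later stages gave 90 (E12.5) and 73 (E13.5) Lmx1a-positive cells. In the order E11.5, E12.5, E13.5, the shares at 10 RPKM for Stmn2 were 63.2%, 71.1% and 82.2%, for Nr4a2 63.2%, 65.6% and 63.01%, and for Shh 31.6%, 22.2% and 26.03%. Slc17a6 stood at 52.6%, 45.6% and 58.9%, and Hes5 at 42.1%, 41.1% and 26.03%. In each of these series the intervals of E11.5 and E12.5 overlap, and E10.5 is the stage that lies apart for Stmn2, Nr4a2, Slc17a6 and Shh. Pitx3 was in 0%, 5.26%, 13.3% and 24.7% of cells from E10.5 to E13.5. Mki67 was in 50%, 15.8%, 8.89% and 4.11%, and Sall4 in 69.4%, 15.8%, 1.11% and 1.37%. Dkk2 was in 0% at E12.5 and 2.74% at E13.5. Neurog1 was highest at E11.5, in 3.06%, 21.1%, 2.22% and 1.37% of cells.

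The GFP positive pools allow a replicated test over a longer step, E13.5 against E10.5, with 6 pools each. No label says whether the pools came from separate embryos, so the p-values reflect only pool-to-pool spread, possibly technical, and fewer cells of a type cannot be told apart from less RNA per cell. In limma with Benjamini-Hochberg adjustment over 15871 genes, 3506 genes rose (22.1%) and 4697 fell (29.6%) at an adjusted p under 0.05. Of the 762 tested genes that were higher in E11.5 cells, 661 rose in the pools (86.8%) and 12 fell. Of the 3664 tested genes that were lower in cells, 2529 fell (69.02%) and 3.77% rose. Both sets had passed the filter in cells, so the 22.1% and 29.6% of all tested genes are not on like terms with these shares. The shares that rose or fell among all genes measured in cells are not given here.

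Among members described above, Stmn2 ranged from 16.6 to 87.1 RPKM in the E10.5 pools and from 834 to 988 in the E13.5 pools, with means of 53.5 ± 29.6 and 919 ± 59.4 (SD, n = 6), and rose by 4.30 on the log2 scale (SE 0.26, limma adjusted p = 3.7e-13). Nr4a2 had means of 15.8 ± 7.02 and 340.5 ± 48.5 (SD, n = 6) and rose by 4.42 (limma adjusted p = 5.2e-13). For both genes the 6 pools of each stage did not overlap. Mapt had the largest rise of the pan-neuronal members, from 3.31 ± 1.503 to 675 ± 98.7 RPKM (SD, n = 6; limma adjusted p = 1.6e-19). Pitx3, nearly absent from E10.5 and E11.5 cells, went from 0.446 ± 0.593 to 79.98 ± 32.04 RPKM (SD, n = 6; limma adjusted p = 2.2e-15).

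On the falling side, Vtn went from 342.5 ± 56.5 to 3.68 ± 4.03 RPKM (SD, n = 6), a log2 difference of -6.53 (SE 0.36, limma adjusted p = 4.6e-14). Dkk2 went from 72.8 ± 11.1 to 1.09 ± 0.61 RPKM (SD, n = 6; limma adjusted p = 8.2e-13), Shh from 65.95 ± 10.7 to 7.43 ± 1.42 (SD, n = 6; limma adjusted p = 2.8e-09) and Ldha from 1167 ± 60.5 to 147.5 ± 30.01 (SD, n = 6; limma adjusted p = 3.5e-16). The pools of the stages did not overlap for any of these 4 genes. Lmx1a did not pass the test, at 72.1 ± 7.95 and 56.6 ± 7.39 RPKM (SD, n = 6; log2 difference -0.35, SE 0.27, limma adjusted p = 0.29).

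Some members took another course in the pools than between E10.5 and E11.5 cells. Hes5, higher in E11.5 cells (1.94), fell in the pools from 878 ± 91.8 to 472 ± 98.1 RPKM (SD, n = 6; limma adjusted p = 5.4e-06). Neurog1, also higher in E11.5 cells (1.53), fell from 6.71 ± 3.46 to 0.164 ± 0.261 RPKM (SD, n = 6; limma adjusted p = 8.1e-07). Gm10801 averaged 2.21 ± 2.55 and 9.65 ± 11.6 RPKM in the pools (SD, n = 6; limma adjusted p = 0.040), a call lost when any of 7 single pools was left out.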

How the data were processed

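Libraries of single cells and of pools of 100 cells were made by Smart-seq2 with Nextera XT kits, per the labels' protocols. Per the submitters' processing notes, STAR 2.3.0 and mm10 were used; for read counter, annotation and filters, nothing is given in the sources used here. For pools the authors deposited RPKM of 23706 genes. For cells the deposited values are log2(RPKM + 0.001) of 25489 genes, a form read from the lowest value, and RPKM was computed back from them. Genes on chromosomes X and Y (1441) were left out.

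Depth was estimated by fitting the read worth of each cell on 8563 genes with 1 transcript. A median of 88.5% of low values at E10.5 and 87.0% at E11.5 came within 0.05 of a whole read number, against 10% by chance, so that 10 RPKM over 2 kb is about 24.0 and 12.8 reads. Thinning left out 2 cells of each stage. Reads carry no molecular identifiers.

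Genes measured were at 10 RPKM or more in at least 10% of cells, averaged over the stages. The genes named are the 12 with the largest difference each way among those past the fold whose share differed by at least 25 points, with the markers and members of 33 lists; some of these genes are not reported here. Members and lists were chosen with earlier results of these data known. Doublets were not called. The pools were tested by limma 3.58.1 (R 4.3.3) on log2(RPKM + 1), 24 pools with 4 group means and a variance trend, for genes at 1 RPKM or more in at least 6 pools. Tested on simulated data for that comparison (14685 genes), the fit found 64% of 2-fold and 95% of 4-fold changes and made 12 false calls. The cell measure recovered 86% of 200 genes raised 8-fold in 5617 genes, with 25 unchanged genes past the fold upwards. Unchanged genes past the fold downwards were not counted. The simulated E11.5 cells were redrawn from the E10.5 cells, so they held no difference of depth or library set. Only genes common among E10.5 cells were used, so genes sparse there, such as Stmn2, were outside it. Alternatives changed thresholds, pseudocounts, filters, scaling, cells and pools.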

Additional observations from a re-analysis of the deposited data

Results flagged for a closer look

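Within the groups of 6 GFP positive pools, a single pool lay far from the other 5 for 5 of 64 groups of values looked at. Chance gives about 1 in 20 for normally distributed values, so a few such flags are no surprise. The highest E10.5 pool for mt-Nd3 was at 9.79 RPKM and the highest E13.5 pool at 7.25, while the other 5 pools of each stage were listed at 0. At E13.5 the highest pool was at 11.7 RPKM for Vtn (median 2.55), at 27.6 for Igfbp5 (median 11.3) and at 80.3 for EGFP (median 58.8). Vtn and Igfbp5 stayed below every E10.5 pool in these pools too.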

How the results depend on the processing

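Of 38 genes followed through up to 17 other settings, 25 stayed past the fold in each setting that held them; genes of 2 kb or less are outside the setting limited to longer genes. The 767 higher genes became 350 with a pseudocount of 10, 1622 with the ratio of mean RPKM, 1505 in cells with Mki67 and 1737 in 21 and 23 cells matched for gene number. They became 1233 at depths of 0.5 to 1.0 M (mega) reads and 1641 relative to the median difference, the last 2 being settings chosen after seeing the data. The 3667 lower genes became 1511 with a pseudocount of 10, 2016 in matched cells, 1886 relative to the median and 2097 among genes longer than 2 kb, the last 2 also chosen later. The share of higher genes among those past the fold was 17.3%, and 37.4% with the ratio of means, 30.9% with median ratio scaling (1131 and 2525 genes), 46.3% in matched cells, 34.7% in cells with Mki67, 32.6% at matched depth and 46.5% relative to the median. Directions turned for Otx2 in cells with Mki67 (0.74) and with Stmn2 under 10 RPKM (0.66), Lmx1b in the latter (-0.031), Mki67 in cells with Mki67 (0.43) and Foxp2 in E11.5 cells with Gm10801 under 100 RPKM (-0.060). The cause of these turns was not tested. Cells with Mki67 were chosen by Mki67 itself, so its turn there does not bear on how well its fall holds. The counts in pools stayed within 1.5 times under every setting run. No paired analysis was possible because the labels tie no cell or pool of a stage to one of another. Depth limits calls of absence, and at E11.5 10 RPKM rests on 12.8 reads for a 2 kb transcript.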

Other observations

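Early response genes, which dissociation can induce, were not higher at E11.5. Of 12 found, 7 passed the filter, 0 were higher and 3 were lower, where 8.35% and 39.9% of all measured genes were. These counts are near the shares of all genes. In Stmn2-low cells 7 passed, 0 were higher and 6 were lower, where 9.42% and 29.9% of all measured genes were. Jun was at 10 RPKM in 77 of 98 cells at E10.5 and 13 of 38 at E11.5, Ier2 in 64 of 98 and 15 of 38, and Fos in 31 of 98 and 3 of 38.

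Cell cycle regulators outside the replication and mitosis lists had 12 found, 10 passed, 1 higher and 3 lower. Of all measured genes 8.35% were higher and 39.9% lower. Ccnd2, a cyclin of dividing progenitors, had medians of 254 (0.0531 to 954) and 10.2 RPKM (0 to 378). Cdkn1c, a cell cycle inhibitor, was at 10 RPKM in 64 of 98 and 25 of 38 cells, with medians of 40.5 and 36.1 RPKM, and in 60 of 94 and 12 of 14 Stmn2-low cells.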
